A study of Mus musculus with 18 samples.

Results

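Hippocampal nuclei of mice that received a microbiota after weaning were compared with those of mice that had carried 1 throughout life. The comparison takes the 3 hippocampus (Hip) libraries of colonized germ-free (CGF) mice and the 3 of specific pathogen-free (SPF) mice, 6 of the 18 libraries of a single-nucleus RNA sequencing study that also holds germ-free (GF) mice and the prefrontal cortex (PFC). All mice were Kun Ming mice, an outbred stock, and were 8 weeks old. CGF mice were born germ-free and were co-housed with SPF mice in isolators for the last 4 weeks, whereas SPF mice had microbes from birth and GF mice had none. Each library holds the nuclei of 1 region of 1 mouse, so the mouse is the replicate (SPF mice 30, 31 and 32, CGF mice 17, 18 and 19, and GF mice 5, 6 and 7). The stock is outbred and the sources used here give no litter or pedigree for any mouse, and CGF and SPF mice also differed in how they were raised, so that differences in genotype or rearing cannot be told apart from colonization in any result, the runs of neighbouring genes included.

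The gut microbiota reaches the brain through metabolites such as short-chain fatty acids, through tryptophan and bile acid derivatives, through the vagus nerve and through immune signals. The hippocampus, which serves memory and the control of stress responses, is often studied in germ-free rodents, and part of what differs in such animals depends on when in life microbes arrive. Colonization after weaning therefore asks which differences from a conventional animal are left once microbes are present but were absent in early life.

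Unique molecular identifiers (UMIs), which count single captured RNA molecules, were summed per library over all nuclei and over gated nuclei. Excitatory neurons had at least 2 UMIs of Slc17a7, the vesicular glutamate transporter, and at most 1 of Gad1 and Gad2 together. Inhibitory neurons had at least 2 UMIs of Gad1 and Gad2, which make GABA, and at most 1 of Slc17a7. Nuclei with at most 1 UMI of either were assigned to astrocytes, oligodendrocytes, oligodendrocyte precursor cells (OPC) or microglia by the list of marker genes with the most UMIs, at least 3. Each gene was tested with edgeR, and a gene is called where the p-value adjusted over all genes tested (Benjamini-Hochberg) is under 0.05. Levels of single genes are in CPM, which scale UMIs to the total of the sum and by the TMM factors of edgeR. They are given in the order of the mice above. Summed levels of several genes, such as marker lists, are CPM scaled to the total alone, and their overlap was read on that scale. Every fold change is CGF against SPF on the log2 scale with its standard error (SE).

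After nuclei with under 200 genes or over 10% mitochondrial UMIs had been left out, a CGF library kept 6456 to 8777 nuclei with 54476527 to 62291708 UMIs and an SPF library 6995 to 8168 nuclei with 55521808 to 63063847 UMIs (exact permutation p = 0.8 for nuclei and 0.7 for UMIs, n = 3). Markers of the dentate gyrus, CA1 and CA3 were found in every library, and those of subiculum and cortex ranged from 279.7 to 731 CPM in CGF and from 382 to 535 CPM in SPF mice. Markers of the choroid plexus, a tissue of the ventricles, varied most, from 21.6 to 400 CPM in CGF and from 137 to 947 CPM in SPF mice (exact permutation p = 0.5). Endothelial markers, 5 genes, did not overlap between the groups, at 56.4 to 103 CPM in CGF and 111 to 145.5 CPM in SPF mice (exact permutation p = 0.10, the smallest that 3 mice against 3 allow), and their part in the results over all nuclei was not tested. The Y-linked gene Ddx3y had 51.1 to 61.4 CPM and Xist 0.995 to 2.14 CPM in all 6 mice, so the groups did not differ in sex. The 15 pairs of these libraries shared 9 to 29 cell barcodes, at most 0.352% of the smaller library.

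In the sum over all nuclei, 66 of 19833 genes tested were called (0.333%), 36 higher and 30 lower in CGF mice, while 2903 had an unadjusted p under 0.05. DESeq2 called 674 of 26353 genes in the same sum (2.56%), 343 higher and 331 lower, so the number of genes called depended on the tool. In each sum the share of DESeq2 is over all genes with at least 1 UMI, whether or not they got an adjusted p. It thus covers a wider set than the genes tested with edgeR, from which the members of lists were taken. Leaving out 1 mouse gave 21 (without CGF mouse 18) to 60 calls. With the gated types weighted equally (limma), 24 genes were called, and 16 of the 66 were among them. Of 73 values of genes that the naming rule picked over all sums, 19 passed with any 1 mouse left out. Among genes with at least 10 CPM, 97.2% had a 95% confidence interval of the log2 fold change that lay within -1 and 1. The called genes were led by Mid1, Sim2 and a stretch of chromosome 9 around Thsd4, all higher in CGF mice, and by Asah2, Gm35256, Zfp846, Kcng3, Dusp12 and Pmepa1, all lower.

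Mid1 encodes a ubiquitin ligase of microtubules that, with its partners, marks protein phosphatase 2A for degradation. It lies at chrX:169685199-170005736 on the plus strand of GRCm38, across the border of the pseudoautosomal region. Over all nuclei it had 40.2, 45.4 and 65.2 CPM in SPF mice and 240.3, 471 and 422 CPM in CGF mice. CGF mice were higher, with CGF mouse 17 the lowest of its group (log2 fold change 2.91, SE 0.29, adjusted p = 0.00417). Lack of overlap between the groups was a condition of the naming rule. GF mice had 166, 113 and 167 CPM.

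Sim2, a transcription factor of the bHLH-PAS family (chr16:94084931-94127032, plus strand), was among the genes with the largest log2 fold changes of those called over all nuclei. Its level was 0.126, 0.203 and 0.203 CPM in SPF mice, from 31 UMIs in all, and 7.94, 7.15 and 11.9 CPM in CGF mice, from 1478 UMIs. The groups lay far apart (log2 fold change 5.64, SE 0.29, adjusted p = 0.000125). GF mice, with 32 UMIs and 0.15 to 0.231 CPM, were at the level of SPF mice.

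Thsd4, an extracellular matrix protein that binds fibrillin microfibrils, rose from 49.1, 34.1 and 42.03 CPM to 94.3, 76.5 and 90.7 CPM (log2 fold change 1.06, SE 0.13, adjusted p = 0.0107). It spans chr9:59966931-60522046 on the minus strand. Right beside it lie the noncoding genes 9230112J17Rik (chr9:60523967-60545882, minus strand) and AC112680.2 (chr9:60527419-60546035, plus strand), which overlap each other on opposite strands, so that reads of one may be counted for the other. 9230112J17Rik had at most 0.253 CPM in SPF mice, from 27 UMIs in all, and 3.72, 2.84 and 3.06 CPM in CGF mice, from 530 UMIs (log2 fold change 4.35, adjusted p = 0.00315). AC112680.2 had 4 UMIs in SPF and 193 in CGF mice. GF mice had 42.8, 43.7 and 40.1 CPM of Thsd4, the level of SPF mice, and 1.85, 3.21 and 1.94 CPM of 9230112J17Rik, near the level of CGF mice, so the neighbours differed in where GF mice stood.

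**Figure D1:**
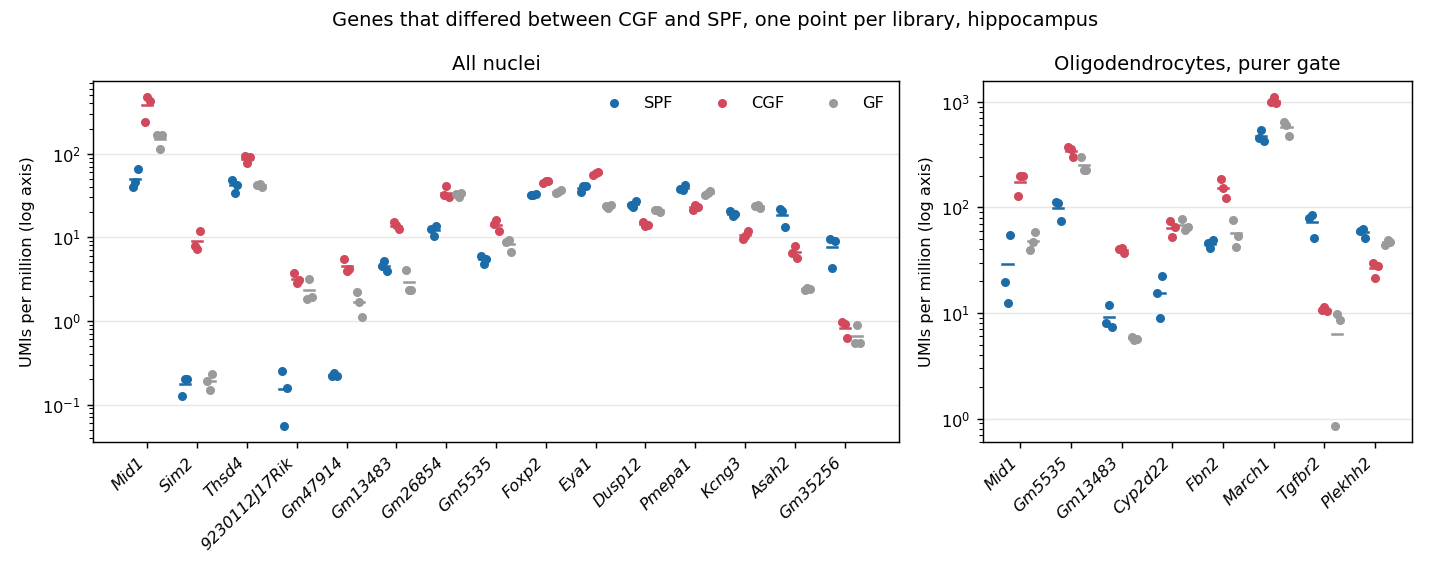
Levels of named genes in CPM on a log axis, over all Hip nuclei (left) and in purer oligodendrocytes (right). Each point is 1 mouse (SPF, CGF or GF, n = 3 each) and each bar a group mean. Mid1 and Thsd4 are higher in every CGF than in every SPF mouse and Asah2, Pmepa1 and Tgfbr2 lower. The naming rule took only genes without overlap in the sum where they were named.

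Other noncoding genes rose as well. Gm47914 (chr13:116558311-116677705) went from 0.217, 0.240 and 0.219 to 5.51, 3.94 and 4.13 CPM (log2 fold change 4.32, adjusted p = 0.000652). Gm13483 (chr2:50296810-50433967) went from 4.52, 5.18 and 3.96 to 15.0, 14.0 and 12.5 CPM and Gm5535 (chr2:144098815-144207990) from 6.01, 4.81 and 5.57 to 14.4, 16.01 and 11.9 CPM, with adjusted p-values of 0.0173 and 0.00829. Gm26854, an antisense gene whose reads cannot be told from those of its partner unless the counting used strand, rose from 12.4, 10.4 and 13.7 to 31.9, 40.9 and 30.1 CPM (log2 fold change 1.49, adjusted p = 0.00274). No role of these genes is stated here.

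A pair of genes with smaller differences had little spread between mice. Foxp2, a transcription factor known for its part in vocal learning and in circuits of the striatum and cortex, had 32.3, 32.02 and 32.7 CPM in SPF and 44.1, 47.7 and 47.3 CPM in CGF mice (log2 fold change 0.52, SE 0.06, adjusted p = 0.00687), with GF mice at 33.8 to 36.7 CPM. Eya1, a phosphatase and transcriptional cofactor, had 35.2, 41.2 and 40.9 against 56.3, 58.8 and 60.9 CPM (log2 fold change 0.58, adjusted p = 0.0165), and only 22.4 to 24.5 CPM in GF mice. Both were chosen after their values were seen.

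Among the genes that fell, Asah2, the neutral ceramidase that splits ceramide into sphingosine and a fatty acid (chr19:31982597-32108211), had 21.5, 20.4 and 13.3 CPM in SPF and 6.49, 7.87 and 5.62 CPM in CGF mice (log2 fold change -1.47, SE 0.19, adjusted p = 0.0165). GF mice were lower still, at 2.37 to 2.50 CPM. Kcng3, a silent subunit that modifies Kv2 potassium channels (chr17:83585957-83631895), fell from 20.5, 18.02 and 19.2 to 9.47, 10.4 and 11.9 CPM (log2 fold change -0.86, SE 0.10, adjusted p = 0.00662). Its level in GF mice, 22.7 to 24.4 CPM, was that of SPF mice or above.

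Pmepa1, a target of TGF-beta signalling that dampens it by binding Smad proteins (chr2:173224458-173276533), fell from 37.9, 36.8 and 41.9 to 21.1, 24.4 and 23.2 CPM (log2 fold change -0.76, SE 0.08, adjusted p = 0.00545). Dusp12, a dual-specificity phosphatase (chr1:170873498-170885540), fell from 24.5, 23.1 and 27.4 to 15.1, 13.8 and 13.9 CPM (log2 fold change -0.81, SE 0.08, adjusted p = 0.00417). The zinc finger gene Zfp846 fell from 38.04, 26.8 and 31.6 to 17.99, 18.02 and 17.1 CPM (log2 fold change -0.86, adjusted p = 0.0204). The naming rule took only genes without overlap between CGF and SPF mice, so their separation came with the choice. GF mice were close to SPF mice or between the groups.

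Gm35256, a noncoding gene at chr8:71026792-71126576, fell from 9.59, 4.35 and 9.07 to 0.959, 0.911 and 0.620 CPM (log2 fold change -3.20, SE 0.34, adjusted p = 0.00579). It stood at 0.541 to 0.883 CPM in GF mice. Oscar, an immune receptor for collagen, and Vmn2r46, a vomeronasal receptor gene, were called lower too (log2 fold change -3.22 and -3.16). Vmn2r46 belongs to a large family of similar sequences, so its reads may be shared with other members.

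A few genes were called in several gated types. Of the 158 genes called in at least 1 of the 6 gated types, 141 were called in a single type, 14 in 2 types, and only Thsd4 in 3, Sim2 in 4 and Mid1 in all 6. The types are sums of nuclei of the same mice, so they are not replicates of each other. The log2 fold change of Mid1 ran from 1.84 in the microglial gate to 3.25 in excitatory neurons. Sim2 passed the filter on low counts in 4 types and was called in each. In these types it had 2 to 11 UMIs in SPF mice, so it passed through its level in CGF mice. That it was called wherever it passed is therefore no support of its own. In OPC Sim2 had 0 UMIs in SPF and 15 in CGF mice, and in the microglial gate 0 and 11. Against a floor of 3 UMIs set for SPF mice, that is 5.11-fold and 3.44-fold higher, without counting error in CGF mice.

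**Figure D2:**
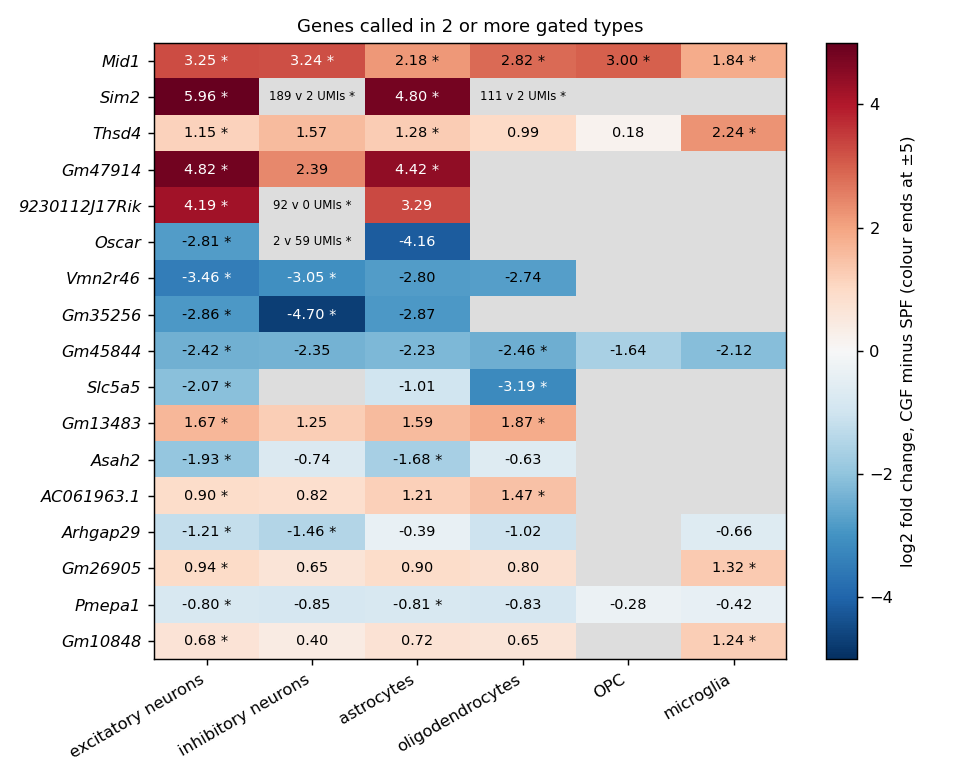
Log2 fold change of CGF against SPF by gated type for the 17 genes called in at least 2 types, as colour (which ends at -5 and 5) and as the printed value, with * for a call. Grey cells hold UMI counts (CGF v SPF) where a group had 3 or fewer, and are blank where a gene did not pass the filter on low counts. Mid1 is above 0 and called in all 6 types, and Gm35256 and Asah2 are below 0 in each type with a value, while in OPC, where it is blank, Asah2 had 7 UMIs in SPF and 22 in CGF mice.

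In excitatory neurons, 77 of 17774 genes were called (0.433%), 40 higher and 37 lower (0.208% of the genes tested). Leaving out 1 mouse gave 14 (without CGF mouse 17) to 72 calls. Mid1, Sim2, Thsd4, Gm13483 and Gm26854 were again among the genes that rose. Mid1 went from 32.5, 31.8 and 51.0 to 236, 463 and 402 CPM (log2 fold change 3.25, adjusted p = 0.00221), and Thsd4 from 55.0, 46.2 and 51.7 to 122, 105 and 111 CPM (log2 fold change 1.15, SE 0.09, adjusted p = 0.0016). The AMPA receptor auxiliary subunit Shisa6, chosen after its values were seen, had 788, 802 and 764 CPM in SPF and 1077, 986 and 1072 CPM in CGF mice (log2 fold change 0.41, SE 0.06, adjusted p = 0.0346). GF mice had 593 to 622 CPM of Shisa6.

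Psat1, an enzyme of serine synthesis, rose from 3.80, 3.37 and 6.35 to 11.5, 12.1 and 10.8 CPM (log2 fold change 1.34, SE 0.23, adjusted p = 0.0492). In GF mice it stood at 8.89 to 13.4 CPM. Of the genes that fell, Arhgap29, a GTPase-activating protein (chr3:121952541-122016753), went from 25.6, 22.6 and 25.8 to 11.8, 8.70 and 11.5 CPM (log2 fold change -1.21, SE 0.14, adjusted p = 0.00949). Asah2 went from 21.9, 21.3 and 12.3 to 4.90, 5.48 and 4.17 CPM (log2 fold change -1.93, adjusted p = 0.0123), and Gm45844 from 52.4, 27.1 and 25.1 to 7.34, 5.48 and 6.69 CPM (log2 fold change -2.42, adjusted p = 0.0382).

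Further genes that fell in the excitatory gate belong to blood vessels. Rgs5, a marker of pericytes, had 29.5, 19.95 and 39.96 CPM in SPF and 5.24, 9.22 and 7.79 CPM in CGF mice (log2 fold change -2.01, adjusted p = 0.0346), and Ly6c1, a marker of endothelial cells in a family of similar genes, 11.7, 5.92 and 14.8 against 1.72, 1.20 and 1.06 CPM (log2 fold change -3.01, adjusted p = 0.0499). The summed level of 5 endothelial markers in these neurons was 13.5 to 28.0 CPM in CGF and 39.2 to 103 CPM in SPF mice, and that of 5 mural markers 21.9 to 33.7 and 39.5 to 73.6 CPM, without overlap between the groups (exact permutation p = 0.10 for each, the smallest that 3 mice against 3 allow). Rgs5 and Ly6c1 are themselves among these 10 markers, and all 10 were detected. Fewer vascular cells and less RNA per cell cannot be told apart in such sums. In inhibitory neurons both lists overlapped between the groups (exact permutation p = 0.20 for each), as they did in the microglial gate (p = 0.80 for each). Over all marker lists and sums that were read, most overlapped between the groups. Without any difference, 3 mice against 3 lack overlap with a probability of 0.1, so some of many lists would lack it. No adjustment was made for the number of marker lists and sums, here or in the other gates. The part of vascular RNA in these calls was not tested.

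Class I major histocompatibility genes, which present peptides to T cells, were among the genes that fell. Over all nuclei H2-Q4, which is outside the complement and MHC list and was chosen after its values were seen, had 1.21, 1.77 and 1.03 CPM in SPF mice, from 229 UMIs, and 0.129, 0.0688 and 0.131 CPM in CGF mice, from 18 UMIs (log2 fold change -3.59, SE 0.53, adjusted p = 0.0299). It was called lower in excitatory neurons too (-3.43, adjusted p = 0.0401) and had 0.0524 to 0.319 CPM over all nuclei of GF mice. Within the list, 2 members passed the threshold, both in excitatory neurons. H2-D1 had 6.49, 6.62 and 9.27 CPM in SPF and 3.44, 2.69 and 2.72 CPM in CGF mice (log2 fold change -1.34, SE 0.21, adjusted p = 0.0346), and H2-K1 3.73, 4.44 and 3.49 against 0.335, 0.192 and 1.11 CPM (log2 fold change -2.85, SE 0.46, adjusted p = 0.04). GF mice had 8.56 to 12.4 CPM of H2-D1 and 0.707 to 1.24 CPM of H2-K1. These genes are near copies of each other and of further H2 genes, and reads may have been split between them. Of the 11 members tested, 2 fell and 0 rose, with a median log2 fold change of -0.97 against 0.00 over all genes tested. DESeq2 called 4 of them lower, and 1.65% of the wider set of genes with at least 1 UMI in either direction. The part of the endothelial markers given above in these values was not tested.

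Excitatory neurons were also gated again, after the data had been seen, keeping only nuclei with over 80 UMIs of 4 neuronal genes (Syt1, Rbfox3, Snhg11 and Kcnip4) per 10000 UMIs. This purer gate gave 97 calls of 17448 genes (0.556%), 55 higher and 42 lower, and 67 of the 77 earlier calls were among them. The 4 genes themselves differed between the groups, with 16320 to 17530 CPM in CGF and 14060 to 15910 CPM in SPF mice before and 17340 to 18250 against 15590 to 16630 CPM after this step. Arhgap29 (log2 fold change -1.41, adjusted p = 0.00576) and Psat1 (1.53, adjusted p = 0.022) were called again. Rgs5 (-1.65, adjusted p = 0.184), Ly6c1 (-3.04, adjusted p = 0.115), H2-D1 (-0.92, adjusted p = 0.115) and H2-K1 (-2.30, adjusted p = 0.0907) were not. Endothelial markers there still differed without overlap, at 5.49 to 11.4 against 14.2 to 27.9 CPM, and mural markers overlapped, at 12.2 to 20.3 against 16.7 to 30.9 CPM.

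In inhibitory neurons, 9 of 14735 genes were called (0.0611%), 4 higher and 5 lower. Leaving out 1 mouse gave 4 to 11, and DESeq2 called 38 of 23844 (0.159%). Mid1 rose from 38.4, 38.3 and 56.8 to 271, 512 and 485 CPM (log2 fold change 3.24, SE 0.25, adjusted p = 0.000527). Sim2 had 2 UMIs in SPF and 189 in CGF mice, a ratio of levels of 91.8 with a counting interval of 25.1 to 763 (adjusted p = 0.00226). 9230112J17Rik had 0 and 92 UMIs, 29.8-fold higher against a floor of 3 UMIs set for SPF mice (adjusted p = 0.029). Gm35256 fell from 23.4, 13.1 and 17.4 to 0.368, 0.909 and 0.722 CPM (log2 fold change -4.70, SE 0.35, adjusted p = 0.000527).

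Arhgap29 fell in inhibitory neurons as well, from 33.9, 37.4 and 27.8 to 12.3, 12.5 and 11.1 CPM (log2 fold change -1.46, SE 0.14, adjusted p = 0.00226), and was at 12.6 to 14.6 CPM in GF mice. Kcng3 fell from 21.3, 22.7 and 29.2 to 6.81, 8.18 and 10.8 CPM (log2 fold change -1.49, SE 0.22, adjusted p = 0.0484), and was at 20.5 to 31.1 CPM in GF mice. The 2 genes thus had a like difference between CGF and SPF mice and stood at opposite levels in GF mice. In the purer gate of inhibitory neurons 20 of 13961 genes were called (0.143%), all 9 of the earlier calls among them. The 4 neuronal genes did not overlap between the groups in this gate, with 13550 to 14230 CPM in CGF and 12930 to 13320 CPM in SPF mice. Thsd4 (log2 fold change 1.70, adjusted p = 0.0139) and Gm26854 (1.70) were among those added.

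The gates of glia took in other nuclei, and this limits what they show. By the 4 neuronal genes above, 46.7% to 54.1% of the gated astrocytes of CGF and 49.0% to 52.8% of SPF mice were over the neuronal limit, as were 29.9% to 36.3% and 25.1% to 34.1% of oligodendrocytes and 2.17% to 5.84% and 2.02% to 3.83% of OPC. In the microglial gate the share was 13.7% to 20.9% in CGF and 6.92% to 9.21% in SPF mice, so it differed between the groups without overlap. The level of the 4 genes did not overlap in astrocytes (12600 to 14860 against 10640 to 11280 CPM) or oligodendrocytes (11890 to 13190 against 10430 to 10800 CPM) either, and did in the purer gates of both. Each glial type was also tested in a purer gate, set after the data had been seen, with at most 80 UMIs of the 4 neuronal genes and at least 10 of the type's own markers per 10000 UMIs.

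**Figure D3:**
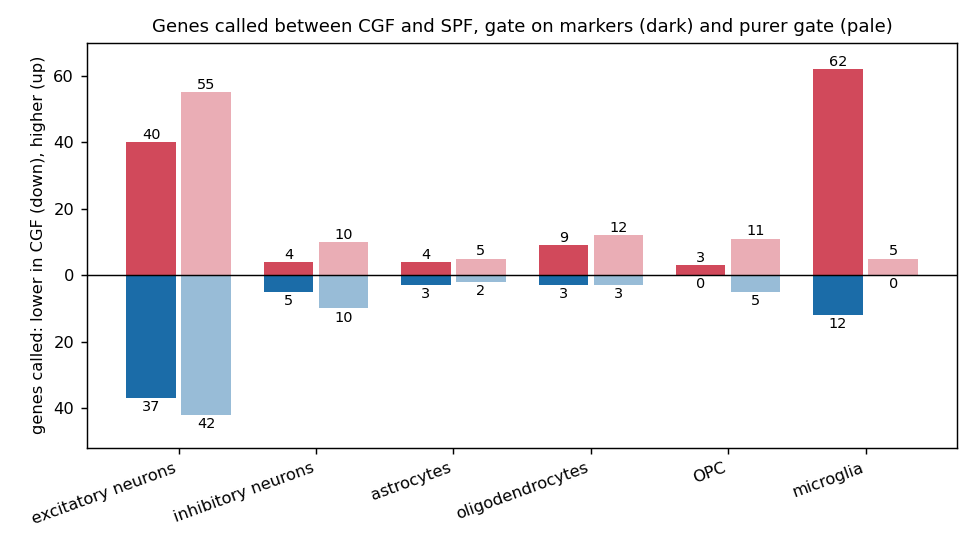
Number of genes called between CGF and SPF mice in each gated type, in the gates by markers (dark bars) and in the purer gates (pale bars), with genes higher in CGF mice above 0 and lower ones below. The microglial gate goes from 74 calls to 5, with fewer UMIs in the purer gate, and OPC from 3 to 16.

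In astrocytes, 7 of 16274 genes were called (0.043%), 4 higher and 3 lower. Leaving out 1 mouse gave 0 (without SPF mouse 30) to 5, and DESeq2 called 120 of 24581 (0.488%). Total counts without TMM gave 2 calls, both among the 7. Mid1 had 76.4, 78.7 and 106 CPM in SPF and 261, 489 and 430 CPM in CGF mice (log2 fold change 2.18, adjusted p = 0.017), Thsd4 24.6, 16.7 and 21.6 against 53.0, 39.8 and 59.9 CPM (1.28, adjusted p = 0.0361). Pmepa1 fell from 45.6, 49.5 and 46.4 to 24.1, 27.1 and 29.4 CPM (-0.81, SE 0.11, adjusted p = 0.0361). Ly6e, an interferon-inducible surface protein in a family of similar genes, fell from 61.3, 67.8 and 71.4 to 34.0, 36.6 and 38.3 CPM (-0.88, SE 0.11, adjusted p = 0.0361), and Asah2 from 16.5, 16.7 and 11.01 to 4.13, 4.62 and 5.06 CPM (-1.68, adjusted p = 0.0361). Endothelial markers in this gate had 109 to 226 CPM in CGF and 289.9 to 297.5 CPM in SPF mice, and in the purer gate 284 to 508 against 602 to 687 CPM, without overlap in either (exact permutation p = 0.10), and their part in these falls was not tested.

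In the purer astrocytes, 7 of 13810 genes were called (0.0507%) and 2 of them, Mid1 and Ly6e, were called before. Mid1 had 194, 206 and 193 against 296, 456 and 407 CPM (log2 fold change 0.97, adjusted p = 0.047) and Ly6e 92.6, 119 and 101 against 62.0, 53.5 and 62.1 CPM (-0.82, adjusted p = 0.047). Asah2 was no longer called, with a log2 fold change of -0.23 (adjusted p = 0.854), nor was Pmepa1, with -0.60 (adjusted p = 0.161). The purer gate added Il31ra, a subunit of the receptor for the cytokine IL-31, at 10.2, 13.3 and 18.7 against 44.2, 54.9 and 51.3 CPM (1.81, SE 0.25, adjusted p = 0.0353). It also added Sat1, which breaks down polyamines, at 105, 96.1 and 98.2 against 196, 175 and 165 CPM (0.84, adjusted p = 0.0466), and Pdzd2, a protein with PDZ domains, at 149, 136 and 143 against 76.5, 68.8 and 77.5 CPM (-0.94, adjusted p = 0.0353).

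In oligodendrocytes, the myelin-forming cells, 12 of 13792 genes were called (0.087%), 9 higher and 3 lower, and leaving out 1 mouse gave 3 (without SPF mouse 30) to 16. Tgfbr2, the type II receptor of TGF-beta (chr9:116084293-116175360, minus strand), had the smallest p-value of the genes that fell in a glial gate. It had 40.5, 39.6 and 32.6 CPM in SPF and 7.53, 8.00 and 8.57 CPM in CGF mice (log2 fold change -2.22, SE 0.23, adjusted p = 0.00327), and 3.098 to 8.997 CPM in GF mice. In the purer gate the levels were 80.1, 85.2 and 51.4 against 10.6, 11.3 and 10.4 CPM (-2.72, SE 0.32, adjusted p = 0.00072). Over all nuclei Tgfbr2 had 14.99, 15.9 and 20.02 against 12.6, 10.02 and 14.9 CPM and was not called (-0.44, adjusted p = 0.56). Endothelial markers in the oligodendrocyte gate had 48.05 to 62.4 CPM in CGF and 87.6 to 179.8 CPM in SPF mice and mural markers 32.6 to 45.6 against 56.3 to 75.03 CPM, without overlap (exact permutation p = 0.10 for each). In the purer gate both overlapped, with 59.4 to 126 against 56.4 to 289.6 CPM of endothelial and 45.95 to 70.4 against 57.1 to 125.5 CPM of mural markers. The part of vascular RNA in the fall was not tested.

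Cyp2d22, a cytochrome P450 of the CYP2D family (chr15:82370527-82380260), whose members share much of their sequence, rose in oligodendrocytes from 10.2, 7.07 and 11.4 to 30.4, 21.3 and 27.1 CPM (log2 fold change 1.42, SE 0.19, adjusted p = 0.0144). Gm5535 went from 49.6, 46.1 and 28.3 to 143, 130 and 113 CPM (1.66, SE 0.18, adjusted p = 0.00327) and Gm13483 from 5.36, 7.92 and 5.30 to 21.6, 23.8 and 21.7 CPM (1.87, adjusted p = 0.00327). GF mice had 33.8 to 37.1 CPM of Cyp2d22 and 112 to 140 CPM of Gm5535, as high as CGF mice, but 3.65 to 5.03 CPM of Gm13483, as low as SPF mice. Mid1 had 27.6, 30.3 and 72.9 against 193, 400.1 and 361 CPM (2.82, adjusted p = 0.0106).

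The purer oligodendrocytes had 15 calls of 11549 genes (0.13%), 12 higher and 3 lower, which held 6 of the 12 earlier ones. Cyp2d22 was among these with a larger change (log2 fold change 1.98, adjusted p = 0.00113). Fbn2, a fibrillin of the extracellular matrix, was added with 46.2, 40.9 and 49.3 against 185, 152 and 124 CPM (1.75, SE 0.20, adjusted p = 0.000604). The membrane-bound ubiquitin ligase gene March1 had 457, 535 and 425 against 1005, 1099.8 and 974.8 CPM (1.12, SE 0.15, adjusted p = 0.00261) and Oxr1, a gene of oxidation resistance, 389, 321 and 520 against 850.1, 854 and 789.8 CPM (1.02, adjusted p = 0.0219). Fam13c (-1.16) and Plekhh2 (-1.14) fell along with Tgfbr2.

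In OPC, 3 of 7832 genes were called (0.0383%), all higher, and leaving out 1 mouse gave 1 to 7. Mid1 had 44.8, 50.3 and 46.1 against 223, 441 and 468 CPM (log2 fold change 3.00, SE 0.25, adjusted p = 3.28e-07). Adam18, a member of a family of membrane proteases best known from sperm (chr8:24602246-24674755), rose from 8.96, 10.1 and 14.6 to 63.4, 45.1 and 51.5 CPM (2.28, SE 0.35, adjusted p = 0.00545). Arhgef3, which activates RhoA (chr14:27114899-27403911), rose from 97.1, 92.5 and 133 to 211, 259 and 231 CPM (1.14, SE 0.18, adjusted p = 0.00756). GF mice had 23.3 to 43.6 CPM of Adam18 and 154 to 225 CPM of Arhgef3. The genes with the next smallest p-values, Cltb, Syne2 and Etl4, did not pass.

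Purer OPC had 16 calls of 7539 genes (0.212%), 11 higher and 5 lower, with all 3 earlier ones. Nrg1, a ligand of ErbB receptors that acts on myelination and synapses (chr8:31814551-32884029), had 638, 535 and 469 CPM in SPF and 1008, 957 and 1002 CPM in CGF mice (log2 fold change 0.85, SE 0.15, adjusted p = 0.0051), with 586 to 912 CPM in GF mice. Olfm3, an olfactomedin, had 58.8, 57.0 and 57.1 against 175, 115 and 149 CPM (1.34, adjusted p = 0.00153) and Rit2, a neuronal Ras-like GTPase, 132, 129 and 108 against 265, 248 and 208 CPM (0.95, adjusted p = 0.00609). Kcnip3, a calcium sensor of Kv4 channels, had 520.2, 438 and 584 against 331, 271 and 310.04 CPM (-0.75, adjusted p = 0.0344), and the clathrin light chain Cltb fell by 1.53 on the log2 scale. With 99 to 183 nuclei per mouse in the gate, 73.4% of OPC genes with at least 10 CPM had an interval within -1 and 1. Endothelial markers in the OPC gate had 13.5 to 19.3 CPM in CGF and 26.6 to 40.4 CPM in SPF mice, with up to 3 of the 5 genes at 0 in a library, and blood markers 33.7 to 69.4 against 16.6 to 29.8 CPM, without overlap in either (exact permutation p = 0.10). In the purer gate the endothelial markers had 14.5 to 20.8 against 30.05 to 41.2 CPM, blood markers 34.9 to 78.4 against 20.6 to 30.2 CPM and markers of CA3 neurons 56.8 to 90.8 against 92.7 to 114.9 CPM, again without overlap (exact permutation p = 0.10 for each), and their part in these calls was not tested.

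The microglial gate held 139 to 175 nuclei per CGF and 162 to 228 per SPF mouse, and 74 of 9550 genes were called (0.775%), 62 higher (0.649%) and 12 lower. The excess of genes that rose was lost with 29 higher and 28 lower without TMM and 21 higher and 31 lower with an offset for gene span, and kept with 218 and 40 by DESeq2 (1.26% of 20510), 114 and 15 in the 6 libraries alone and 62 and 8 in thinned libraries. Leaving out 1 mouse gave 2 (without CGF mouse 17) to 165 calls (without CGF mouse 19). Among the 62 that rose, some genes best known from neurons are given as examples, without the share over all such genes tested. Kirrel3, a synaptic adhesion molecule, had 287, 153 and 231 against 1192, 779 and 1216 CPM (log2 fold change 2.24, SE 0.23, adjusted p = 0.00122). The adhesion molecules Lrfn5 (1.18) and Il1rapl1 (1.01) and the delta glutamate receptor Grid1 (1.09) rose with it. The 4 neuronal genes of the purity check had 9051 to 12791 CPM in the microglial gate of CGF and 5910 to 8373 CPM in that of SPF mice. The gate's own markers had 2548 to 2710 against 3367 to 3780 CPM. Slc17a7, which the gate limits, went the other way from the 4 genes, at 96.1 to 123 against 139 to 149 CPM, scaled to the total alone. Astrocyte markers (1111 to 1191 against 1398 to 1609 CPM) and oligodendrocyte markers (309 to 395 against 424 to 727 CPM) were lower in CGF mice too. None of these overlapped between the groups, while OPC markers and Gad1 with Gad2 did.

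In purer microglia 5 of 7636 genes were called (0.0655%), all higher, and 3 of the 74 were among them. The purer gate held 186341 to 262953 UMIs per CGF and 306518 to 372917 per SPF mouse. In the gate by markers these were 478787 to 647992 and 495195 to 618548 UMIs. The part of this lower depth in the loss of calls was not tested. Lrfn5 (log2 fold change 0.35, adjusted p = 0.766), Il1rapl1 (0.57, adjusted p = 0.562) and Grid1 (0.51, adjusted p = 0.805) were not called in the purer gate. Kirrel3 did not pass its filter on low counts. Mid1 was called in both gates. In the purer one it had 17.3, 87.3 and 76.2 CPM in SPF and 163, 421 and 294 CPM in CGF mice (2.28, SE 0.35, adjusted p = 0.00467). F13a1, coagulation factor XIII A and a gene of macrophages at the borders of the brain, had 147, 108 and 54.0 against 391, 357 and 265 CPM (1.69, SE 0.29, adjusted p = 0.0105), and 100.3 to 219 CPM in GF mice. In the gate by markers F13a1 did not pass (1.17, adjusted p = 0.103). Gm43821 had 3 UMIs in SPF and 57 in CGF mice in the gate by markers, a ratio of 17.8 with a counting interval of 5.81 to 89.1, and 2 and 56 in the purer one.

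**Figure D4:**
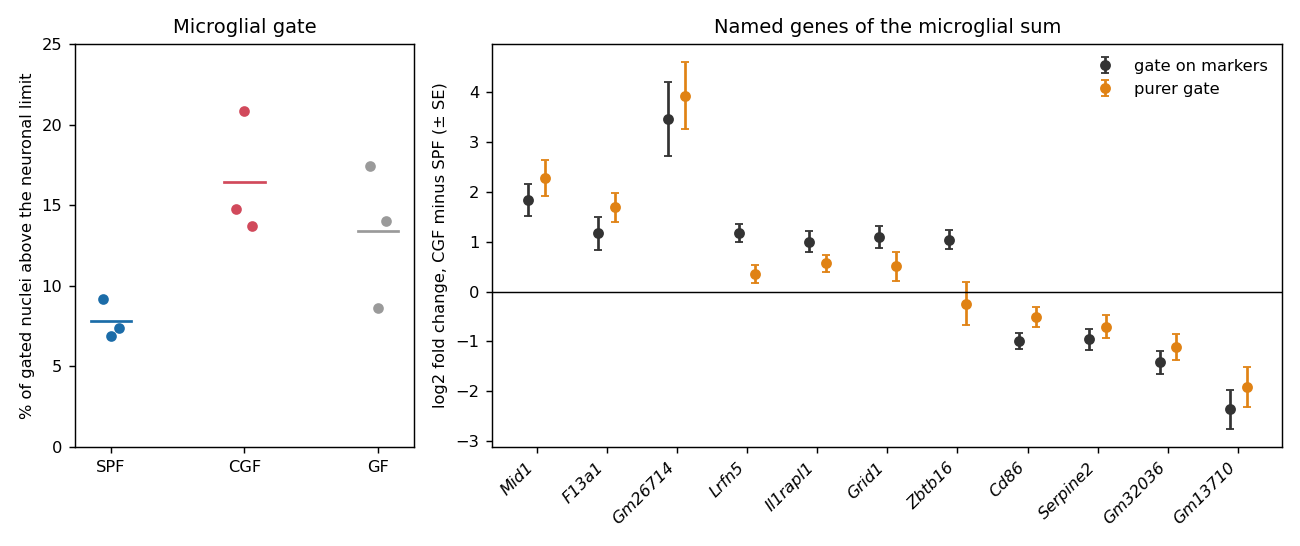
Left, percentage of nuclei of the microglial gate over the neuronal limit, 1 point per mouse and a bar for the mean of 3. Right, log2 fold change of CGF against SPF (error bars, SE) of named genes in the gate by markers (black) and in the purer gate (orange). Mid1 is far above 0 in both, Lrfn5, Il1rapl1 and Grid1 come nearer to 0 in the purer gate, and F13a1 does not.

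Genes of microglial function themselves gave few calls. Cd86, a costimulatory molecule of antigen presentation, had 149, 120.3 and 135 CPM in SPF and 69.6, 70.6 and 63.3 CPM in CGF mice in the gate by markers (log2 fold change -0.995, SE 0.17, adjusted p = 0.0179), with 104 to 116 CPM in GF mice. In the purer gate it had 254, 199 and 213 against 163, 169.6 and 139 CPM and was not called (-0.51, adjusted p = 0.676). Csf1r, the receptor that microglia depend on for survival, is a gate marker and gives no result in the gate. The lipid receptor Trem2 had 51.4, 40.8 and 44.2 against 31.3, 21.9 and 24.6 CPM (-0.79, adjusted p = 0.123). Of 12 homeostatic genes tested 0 were called by edgeR and 1 lower by DESeq2, with 0 higher and 4 lower at an unadjusted p under 0.05. Of all genes tested in this gate, 8.66% were higher and 6.27% lower at that threshold. DESeq2 called 1.26% of the wider set of genes with at least 1 UMI. Of 9 activation genes 0 were called by either tool, with 1 higher and 5 lower unadjusted. Trem2 and both lists were read in the gate by markers. There the summed markers of microglia themselves had 2548 to 2710 CPM in CGF and 3367 to 3780 CPM in SPF mice. In the purer gate these markers overlapped, at 5491 to 6027 against 4791 to 5924 CPM. Their part in the counts of both lists was not tested. Without the scaling factors of edgeR the median of all genes in this gate moves from -0.02 to -0.18, and only 58.8% of genes with at least 10 CPM had an interval within -1 and 1.

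Gene groups tied to the microbiota were read as lists. Cholesterol synthesis, which in the brain runs mainly in astrocytes and oligodendrocytes, had 22 members tested and 0 called by edgeR in any of the 5 larger sums. Of them 10 were lower at an unadjusted p under 0.05 over all nuclei, 7 in excitatory neurons, 9 in inhibitory neurons, 9 in astrocytes and 4 in oligodendrocytes, where 6.28%, 6.32%, 4.16%, 5.16% and 5.15% of all genes tested were. DESeq2 called 1, 1, 0, 2 and 0 lower. In either direction it called 2.56%, 1.65%, 0.159%, 0.488% and 0.193% of the wider set of genes with at least 1 UMI. The median log2 fold change of the list was -0.21, -0.24, -0.31, -0.33 and -0.18 in these sums, against -0.02 to 0.00 over all genes, and 21, 22, 20, 20 and 19 of the 22 members were lower. The medians were below 0 under each of the other scalings tried too. In astrocytes Msmo1, a sterol oxidase, had 60.5, 52.3 and 60.4 against 44.9, 40.7 and 42.2 CPM and Hmgcs1, the synthase before the rate-limiting step, 50.2, 45.03 and 51.9 against 33.2, 39.2 and 35.5 CPM. Both were chosen from the 22 members after their values were seen, and neither gene passed (log2 fold change -0.44 and -0.45, adjusted p = 0.145 for each).

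The complement and MHC list had 15 members tested over all nuclei, with 0 called by edgeR, 0 higher and 3 lower by DESeq2, and 0 higher and 7 lower unadjusted (median log2 fold change -0.63). Over all genes tested in this sum 8.36% were higher and 6.28% lower unadjusted. DESeq2 called 2.56% of the wider set of genes with at least 1 UMI, and the lists that follow are read against the same shares. Of 20 interferon response genes over all nuclei 0 were called by edgeR and 2 lower by DESeq2, with 1 higher and 5 lower unadjusted (median -0.32, 19 of 20 lower). The 13 protein-coding genes of the mitochondrial genome had a median of -0.82 with 0 calls by either tool and 3 lower unadjusted. Beside them stands a mitochondrial share of UMIs of 0.0686% to 0.201% in CGF and 0.114% to 0.429% in SPF mice (exact permutation p = 0.3), whose part was not tested. Nuclear genes of oxidative phosphorylation (89 tested, median -0.08, 0 calls by edgeR and 1 by DESeq2, 6 unadjusted) and cytosolic ribosomal proteins (97 tested, median -0.09, 0 calls by either, 8 unadjusted) were near 0.

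Immediate early genes, which follow neuronal activity, had 24 members tested over all nuclei, with 0 called by edgeR or DESeq2 and 0 unadjusted. Fos had 4.84, 3.15 and 3.11 CPM in SPF and 4.15, 4.01 and 3.38 CPM in CGF mice (log2 fold change 0.06, SE 0.19), and 13.2 to 17.7 CPM in GF mice. Bdnf, a growth factor often studied in germ-free mice, had 48.3, 51.7 and 51.8 against 46.7, 47.7 and 46.8 CPM (-0.10, SE 0.08, adjusted p = 0.613), and the 21 neurotrophin, neuregulin and receptor genes gave 0 calls by either tool with 1 higher and 2 lower unadjusted. Receptors and sensors of microbial metabolites (15 tested, 0 calls by either tool, 1 higher and 2 lower unadjusted) and serotonin and dopamine receptors (17 tested, 0 calls by edgeR and 1 higher by DESeq2, 2 higher unadjusted) gave no call by edgeR. In excitatory neurons GABA-A receptor subunits, 13 tested, had a median of 0.16 with 12 higher, 0 calls by either tool and 4 higher unadjusted, where 7.78% of all genes of these neurons were higher.

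Some called genes lay close together. Of the 180 genes called in at least 1 sum, 137 are protein-coding, 22 antisense and 19 lincRNA genes. Of 179 with a position, 50 lay within 1 Mb of another. The like share over all genes tested was not computed, so this count does not show that called genes cluster. The longest run, at chr8:70184340-71587302, held 6 called genes, Slc25a42, Homer3, Slc5a5, Gm35256, Mvb12a and Slc27a1, and all were lower in CGF mice. Homer3, a scaffold of metabotropic glutamate receptors, had 18.3, 21.8 and 21.0 against 10.7, 12.1 and 14.0 CPM over all nuclei (log2 fold change -0.73, adjusted p = 0.0426), and Slc27a1, a fatty acid transporter, 36.4, 36.2 and 40.3 against 25.9, 23.6 and 24.5 CPM (-0.61, SE 0.07, adjusted p = 0.00668). Of the 56 genes tested there over all nuclei, 5 were called, and the median of all 56 was -0.21. A second run on the same chromosome, at chr8:24173904-25038962, held 5 called genes with Adam18 among them, all higher, and the stretch at chr9:59966931-60546035 held Thsd4 and its 2 neighbours, all higher. Of the 8 runs of 3 or more called genes, 4 held genes of both directions, and in the run with Adam18 another 2 tested genes were lower at an unadjusted p under 0.05. Runs were found after the calls were known, and no test was made of them.

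Shares of gated nuclei were compared by a test that cannot pass the threshold with 3 mice against 3. Excitatory neurons made up 24.7% to 29.8% of the nuclei of CGF and 31.6% to 34.8% of SPF mice, without overlap and 6.25 percentage points lower in the mean (exact permutation p = 0.1, the smallest possible, adjusted p = 0.6 over the 6 types). The groups did not overlap in the stricter gate either (8.74% to 12.1% against 12.4% to 14.4%). They did when each nucleus was thinned to 1000 UMIs (1.18% to 2.53% against 1.95% to 2.88%) and in the purer gate (21.1% to 26.4% against 24.8% to 29.3%). A limit of at least 500 genes per nucleus left the shares of CGF and SPF mice unchanged, so it was no separate check. Astrocytes were 25.4% to 29.7% against 19.8% to 27.6% (exact permutation p = 0.3), and 12.9% to 13.2% against 9.11% to 12.5% in the purer gate (p = 0.1, adjusted p = 0.6). Microglia were 1.58% to 2.42% against 1.98% to 3.26% (exact permutation p = 0.4). Inhibitory neurons, oligodendrocytes and OPC overlapped as well (exact permutation p = 1, 1 and 0.7). A share depends on how many UMIs a nucleus had and on the other types, so fewer nuclei of a type and less RNA in them cannot be told apart.

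The genes called in Hip were then read in PFC of the same mice. Calls and p-values for PFC came from a fit over the 12 CGF and SPF libraries of both regions, without the mouse as a block. Both libraries of a mouse thus counted as separate in the estimate of spread. Over all nuclei, 86 of 19651 genes (0.438%) were called between CGF and SPF mice in PFC. Of the 65 genes called in Hip that could be tested there, 57 had the same sign (87.7%, against 63.7% of all genes tested in both) and 19 were called with it, 28.8% of the Hip and 22.1% of the PFC calls. Both regions come from the same animals, so PFC is no independent group of mice. The difference between the regions, tested as an interaction, passed for 2 of 19651 genes (0.0102%), neither of them called in Hip, and 813 had an unadjusted p under 0.05.

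Mid1 had 70.3, 38.6 and 56.7 CPM in PFC of SPF and 145, 285 and 197 CPM in PFC of CGF mice (log2 fold change 1.92, SE 0.31, adjusted p = 0.0142), and CGF mouse 17 was the lowest of its group in both regions. Sim2 had 0.0467, 0.114 and 0.116 against 108, 138 and 212 CPM (10.60, SE 0.42, adjusted p = 5.44e-08), so its level in CGF mice was far higher in PFC than in Hip. Its difference between regions was -4.97 and passed only with the mouse as a block (adjusted p = 0.00292, against 0.264 without). Pmepa1 fell from 106, 102 and 100.04 to 69.1, 64.8 and 75.0 CPM (-0.56, SE 0.08, adjusted p = 0.00826), Kcng3 from 20.7, 15.7 and 18.8 to 11.2, 12.1 and 9.69 CPM (-0.74, adjusted p = 0.0247) and Asah2 from 22.0, 21.3 and 13.5 to 5.96, 8.01 and 7.76 CPM (-1.39, adjusted p = 0.0229). In Asah2 SPF mouse 32 was the lowest of its group in both regions.

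**Figure D5:**
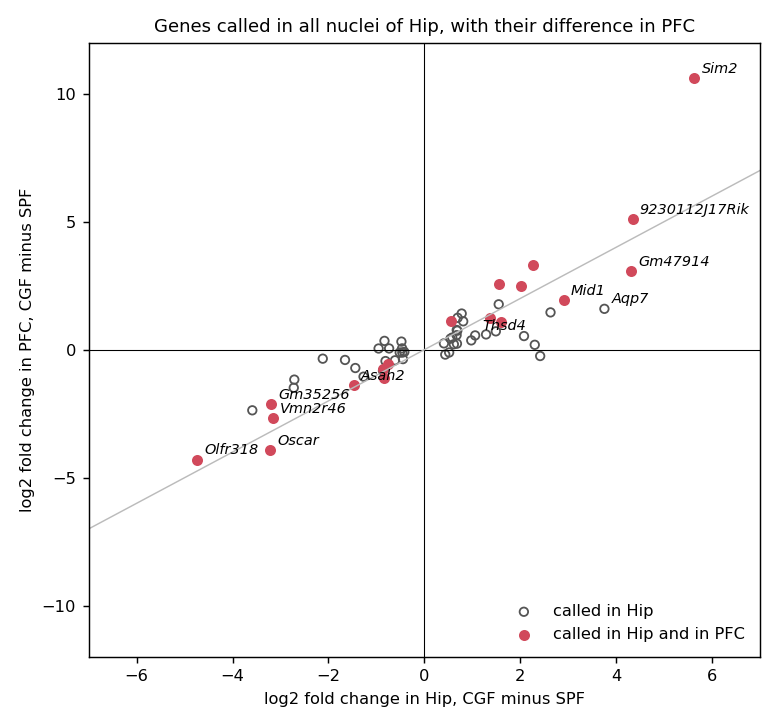
Log2 fold change of CGF against SPF over all nuclei in Hip (horizontal) and in PFC (vertical) for 60 of the genes called in Hip, leaving out those with few UMIs in a group. Filled points are also called in PFC, the grey line marks equal changes, and both regions come from the same mice. Most points lie where both changes have the same sign, and Sim2 lies highest.

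Some genes had no such counterpart. Foxp2 had 79.0, 75.7 and 80.6 CPM in PFC of SPF and 68.1, 92.6 and 57.5 CPM of CGF mice (log2 fold change -0.11, SE 0.13), but the interaction did not pass the adjustment (unadjusted p = 0.00412 from edgeR, adjusted p = 0.998). In excitatory neurons 54 of 17458 genes (0.309%) were called in PFC. Of the 77 genes called in Hip, 65 had the same sign there (84.4%, against 62% of all genes) and 11 were called (14.3% of the Hip and 20.4% of the PFC calls). Arhgap29 had 32.8, 33.7 and 26.7 against 29.5, 23.6 and 28.6 CPM in excitatory neurons of PFC (-0.19, SE 0.14, interaction unadjusted p = 0.00017 from edgeR, adjusted p = 0.297). The interaction passed for 2 of the 17458 genes (0.0115%), with 843 at an unadjusted p under 0.05, and for 6 with the mouse as a block, which added the vascular genes Rgs5, Flt1 and Slco1a4 and Emc10. In the microglial gate 1 of 7712 genes (0.013%) was called in PFC, and of the 69 genes called in Hip and tested there 45 had the same sign (65.2%, against 51.4% of all genes) and 0 were called by edgeR, whose unadjusted p was under 0.05 for 485 of all genes. No gene passed the interaction there with edgeR (0 of 7712, 0%, with 641 at an unadjusted p under 0.05), and 2 passed with the mouse as a block, Kirrel3 (adjusted p = 0.000853) and Sorcs1 (adjusted p = 0.0261). The 4 neuronal genes, which did not overlap between the groups in the microglial gate of Hip, had 5036 to 6155 CPM in that of PFC of CGF and 5621 to 6757 CPM in that of SPF mice, and their part in this difference between regions was not tested.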

How the data were processed

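The authors isolated nuclei, sequenced them with the 10x Genomics 3' assay, and made counts of UMIs per gene and nucleus with Cell Ranger on mm10. The deposited values are these raw counts, without normalization, for 30905 genes, and 15 libraries were read (9 of Hip, and 6 of PFC from CGF and SPF mice). Whether intronic or strand-specific reads were counted, and any removal of doublets, is not given in the sources used here, and no doublet caller was run. UMIs of nuclei with at least 200 genes and at most 10% mitochondrial UMIs were summed per library and gate. Genes passing filterByExpr were fitted over the 9 Hip libraries (TMM, glmQLFit, glmQLFTest in edgeR 4.0.16, limma 3.58.1, R 4.3.3), with the contrast CGF minus SPF, and the SE was obtained by dividing the size of the log2 fold change by the root of its F statistic. GF libraries added to the estimate of spread. The contrast CGF minus SPF in PFC came from a fit over the 12 CGF and SPF libraries of both regions, without the mouse as a block. The difference between regions was an interaction over the same 12 libraries. It was also fitted with the mouse as a block, since both regions carry the same mouse number: deviations of a mouse's regions correlated by 0.168 to 0.296 over all nuclei and by 0.136 to 0.365 in excitatory neurons, and by -0.034 to 0.050 in microglia. For shares, exact permutation tests (two-sided) were used (scipy 1.17.1), which cannot go below p = 0.1. P-values within Hip measure the spread between mice of a group, which are separate animals per the labels. In the fits over 12 libraries without the block, both libraries of a mouse counted as separate. Counting intervals (95%) cover counting error only. Floors set a group with 0 UMIs to 3 UMIs and leave out the counting error of the other group.

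In each sum the rule named the 5 largest rises and 5 largest falls among called genes without overlap and with at least 10 CPM in the higher group, 12 genes called in most types, and up to 4 called members per list. Further genes, among them all that only a purer gate called, were chosen after their values were seen. The comparison, the gene lists and the tests were chosen with earlier results of these data known. Alternatives were DESeq2 1.42.0, no TMM, no filter, the 6 libraries alone, thinned libraries, an offset for gene span, removal of mitochondrial and the 20 most abundant genes, types weighted equally, a stricter gate (planned), the purer gate (added after seeing the data) and each mouse left out. Some genes are not reported here. Gene positions are those of the GENCODE vM21 annotation of GRCm38, where 30843 genes (99.8%) were found.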

Additional observations from a re-analysis of the deposited data

Results flagged for a closer look

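A pair of low noncoding genes differed between Hip and PFC in how CGF mice stood to SPF mice, by the interaction test of edgeR over 12 libraries. A830029E22Rik, a lincRNA gene at chr3:81802025-81805161, had 1.65, 0.981 and 0.993 CPM in Hip of SPF and 0.0368, 0.0866 and 0.0188 CPM in Hip of CGF mice, but 1.49, 0.733 and 0.581 CPM in PFC of SPF and 2.55, 1.52 and 2.47 CPM in PFC of CGF mice. All 3 CGF mice lay below all SPF mice in Hip and above them in PFC. The difference between the regions was -5.78 over all nuclei (adjusted p = 0.0131, and 0.00292 with the mouse as a block) and -6.36 in excitatory neurons (adjusted p = 0.00558 and 0.00208). These values depend on the prior count of the fit, since CGF mice had only 8 UMIs of it over all nuclei and 3 in excitatory neurons of Hip, against 207 and 104 in SPF mice.

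AC135083.1, an antisense gene at chr14:74926445-74933133, had 0.615, 0.648 and 0.489 CPM in Hip of SPF and 1.03, 0.796 and 0.752 CPM in Hip of CGF mice, against 0.140, 0.309 and 0.0774 CPM in PFC of SPF and 11.3, 7.30 and 4.80 CPM in PFC of CGF mice. The difference between the regions was -4.87 over all nuclei (adjusted p = 0.0131, and 0.00292 with the block) and -5.55 in excitatory neurons (adjusted p = 0.00558 and 0.00514), where PFC of SPF mice had 5 UMIs and PFC of CGF mice 310. With 1 mouse left out the test between regions gave 0 to 3 calls over all nuclei and 0 to 2 in excitatory neurons, so neither gene kept its call in every fit. Neither gene was called between CGF and SPF mice in Hip alone. Why they differ was not tested.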

How the results depend on the processing

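Counts of calls depended on single mice. With each mouse left out, calls ran from 21 (without CGF mouse 18) to 60 over all nuclei, from 14 (without CGF mouse 17) to 72 in excitatory neurons, from 4 to 11 in inhibitory neurons, from 0 (without SPF mouse 30) to 5 in astrocytes, from 3 (without SPF mouse 30) to 16 in oligodendrocytes, from 1 to 7 in OPC and from 2 (without CGF mouse 17) to 165 (without CGF mouse 19) in the microglial gate. The test between regions gave 0 to 3, 0 to 2 and 0 to 19 (without CGF mouse 19, microglial gate).

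In the order all nuclei, excitatory neurons, inhibitory neurons, astrocytes, oligodendrocytes, OPC and microglia, DESeq2 called 674, 419, 38, 120, 45, 2 and 258 genes. The 6 libraries alone gave 40, 31 and 7 in all nuclei, excitatory neurons and oligodendrocytes and 129 in microglia, and no filter 23, 37, 126, 36 and 545 from inhibitory neurons to microglia. Equal weight of types (limma) gave 24 over all nuclei. Thinning gave 4 in inhibitory neurons, 7 in oligodendrocytes and 1 in OPC. The stricter gate gave 36 in excitatory neurons, 4 in astrocytes, 7 in oligodendrocytes and 0 in microglia, and the purer gate 20 in inhibitory neurons, 16 in OPC and 5 in microglia. Total counts without TMM gave 2 in astrocytes and the span offset 14. Scaling also moved the split of higher and lower genes: microglia went from 62 and 12 to 29 and 28 without TMM and to 21 and 31 with the span offset, and excitatory neurons from 40 and 37 to 28 and 48 without TMM.

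With the mouse as replicate block the test between regions called 3 genes over all nuclei, 6 in excitatory neurons and 2 in microglia, against 2, 2 and 0, and 1 in excitatory neurons after thinning. The difference in share reversed for oligodendrocytes from 0.107 percentage points to -0.566 (thinned) and -0.112 (purer gate) and for OPC from -0.137 to 0.131 (stricter gate). With each mouse left out it ran from -0.849 (without CGF mouse 19) to 0.783 (without CGF mouse 18) for inhibitory neurons, from -0.717 (without SPF mouse 31) to 1.16 (without SPF mouse 32) for oligodendrocytes and from -0.499 (without SPF mouse 32) to 0.203 (without SPF mouse 30) for OPC.

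Of 73 values of named genes, 19 passed with every mouse left out, those of Mid1 in 4 sums, Sim2, Arhgap29 and Gm26854 in 2 each, and Thsd4, 9230112J17Rik, Gm47914, Gm35256, Gm13483, Gm5535, Tgfbr2, Dusp12 and Pmepa1 in 1 each. Of 1062 values under alternatives, 733 kept direction and call, 328 kept direction only and 1 reversed, Zbtb16 in microglia, from 1.05 to -0.25 in the purer gate. The cause was not tested.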
